A study of Homo sapiens with 4 samples.

Results

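The mitotic cyclins, their kinase CDK1 and the anaphase-promoting complex (APC/C) were examined in prostate cancer cells with and without UGT2B17. The module was a list of 34 gene symbols covering cyclins A, B and F, CDK1 and its CKS partners, separase and securin, SCF components, the Greatwall kinase branch, and the subunits, activators and E2 enzymes of the APC/C. Each of the 34 symbols matched 1 gene of the count files, and all 34 passed the filter on low counts, among 15626 genes tested of 60880 listed. By role, 14 are core subunits of the APC/C, 4 are its activators and E2 enzymes, and 16 act around it.

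LNCaP95 cells descend from the prostate cancer line LNCaP and were adapted to growth without androgen. LN95(KO) was derived from LNCaP95 by CRISPR targeting of UGT2B17, which encodes an enzyme that attaches glucuronic acid to androgens, and the comparison asked how loss of UGT2B17 alters the transcriptome. RNA-Seq covered 2 libraries of LNCaP95, labelled WT (replicates 1 and 2), and 2 libraries of LN95(KO), labelled UGT2B17 KO (replicates 3 and 4). Both lines were kept in charcoal-stripped serum, which is low in steroids, without treatment before RNA extraction. How many knockout clones the 2 libraries represent was not given in the sources used here, so the knockout may stand for 1 clone, and nothing in the labels says that the libraries came from separate cultures. The p-values below therefore measure the spread between these libraries, which may be technical.

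UGT2B17 had 2788 and 2748 counts in LNCaP95 against 21 and 20 counts in LN95(KO). Gene reads ranged from 17330338 to 18813193 per library. Luminal prostate markers were abundant in every library: HOXB13 had 6837 to 10283 counts, FOXA1 had 6953 to 12978, KRT8 had 11085 to 14233 and KRT18 had 2205 to 2457. HOXB13 and FOXA1 were lower, and KRT8 higher, in both LN95(KO) libraries than in either LNCaP95 library, and their part in the results below was not tested. The basal markers KRT5, KRT14 and TP63 summed to 3 counts in each LNCaP95 library and to 18 and 23 in LN95(KO). Of the counts in LN95(KO), 17 and 20 were of KRT14, and TP63 had 0 in both libraries. The leukocyte and endothelial markers PTPRC and CDH5 held between 0 and 1 count. The fibroblast markers COL1A1 and COL1A2 summed to between 521 and 611 counts, nearly all of COL1A1 (520 to 606). Reads that could not be aligned made up 3.85% and 3.96% of entries in LNCaP95 against 8.05% and 7.71% in LN95(KO), and the part of this difference in the results below was not tested.

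Entry into mitosis depends on CDK1 bound to an A- or B-type cyclin. Exit from mitosis depends on the APC/C, a ubiquitin ligase that marks cyclin B and securin for destruction once CDC20, and later FZR1, has bound to it and brought in substrates. The core of the complex is a scaffold with a cullin and a RING subunit, while ubiquitin itself is delivered by the E2 enzymes UBE2C and UBE2S. The A- and B-type cyclins, cyclin F, CDK1 and CDC20 are transcribed mainly late in the cell cycle, through promoters in which CCAAT boxes bound by NF-Y and the cell cycle genes homology region (CHR, with the core TTTGAA) are common.

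Promoter sequences of 5 members with large differences and of 3 members whose levels were close in both lines are shown, as examples of the motifs whose shares are given next. The 8 genes were chosen after their values were seen. All 5 are members that hold both CCAAT and TTTGAA, so the runs do not stand for every member with a large difference. CCNA2, CCNB1 and PTTG1 also had large differences but hold CCAAT without TTTGAA, and are not shown. ENSA, whose levels were close in both lines, holds CCAAT and is not shown either. Each run holds the 130 bases before a RefSeq start of the gene on GRCh38.p14, 5′ to 3′ on the strand of the gene, and capitals mark CCAAT (or ATTGG, its reverse complement) and TTTGAA. The runs lie at chr15:59105016-59105145 (plus strand) for CCNB2, chr10:60778348-60778477 (plus strand) for CDK1, chr1:154974551-154974680 (plus strand) for CKS1B, chr1:43358851-43358980 (plus strand) for CDC20, chr12:53268169-53268298 (plus strand) for ESPL1, chr19:3506181-3506310 (plus strand) for FZR1, chr9:137188561-137188690 (minus strand) for ANAPC2 and chr4:25377133-25377262 (plus strand) for ANAPC4.
CCNB2: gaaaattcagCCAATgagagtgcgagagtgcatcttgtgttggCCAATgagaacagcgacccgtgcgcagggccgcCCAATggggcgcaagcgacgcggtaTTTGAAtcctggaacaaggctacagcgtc
CDK1: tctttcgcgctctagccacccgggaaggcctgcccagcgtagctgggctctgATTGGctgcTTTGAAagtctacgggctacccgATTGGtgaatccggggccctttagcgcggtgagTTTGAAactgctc
CKS1B: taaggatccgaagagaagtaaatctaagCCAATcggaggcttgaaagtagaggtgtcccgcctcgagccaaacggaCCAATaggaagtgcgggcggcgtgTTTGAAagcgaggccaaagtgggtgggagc
CDC20: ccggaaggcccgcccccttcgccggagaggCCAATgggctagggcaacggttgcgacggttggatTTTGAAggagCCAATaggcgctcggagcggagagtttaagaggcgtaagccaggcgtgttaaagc
ESPL1: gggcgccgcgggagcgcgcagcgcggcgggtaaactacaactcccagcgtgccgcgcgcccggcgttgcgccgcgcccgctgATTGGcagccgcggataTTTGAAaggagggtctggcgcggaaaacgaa
FZR1: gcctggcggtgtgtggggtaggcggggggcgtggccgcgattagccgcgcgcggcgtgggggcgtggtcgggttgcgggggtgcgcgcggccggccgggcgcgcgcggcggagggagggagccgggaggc
ANAPC2: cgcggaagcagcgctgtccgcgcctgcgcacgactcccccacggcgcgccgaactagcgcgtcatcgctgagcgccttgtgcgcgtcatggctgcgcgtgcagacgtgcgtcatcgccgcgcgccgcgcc
ANAPC4: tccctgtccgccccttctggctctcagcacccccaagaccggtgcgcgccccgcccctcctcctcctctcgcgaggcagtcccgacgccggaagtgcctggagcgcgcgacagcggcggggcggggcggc
The CCNB2 stretch holds 3 CCAAT boxes spaced 33 bases apart followed by TTTGAA. CDK1 has 2 boxes on the opposite strand, 32 bases apart, and CKS1B has another 2 in this stretch. The stretches of FZR1, ANAPC2 and ANAPC4 hold none of these letters, which says only that they are not in these 130 bases. FZR1 has TTTGAA 226 bases before the start shown, beyond the stretch, and counts below as a member with TTTGAA. CDK1 and FZR1 each have 2 starts in the table, and the one shown for CDK1 is the one with more matches: before its other start the letters lie only beyond the 130 bases.

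The windows of the promoter table run from 250 bases before to 50 bases after a start, and both strands were searched. They covered 33 of the 34 members with 55 windows, since some genes have several starts. UBE2C has no entry. CCAAT was present for 20 of 33 members (60.6%), beside 42.9% of 11046 tested genes with a window. TTTGAA was present for 14 of 33 (42.4%), beside 13.3%. Both letters in 1 window, a combination looked at after the single motifs had been seen, were found for 8 of 33 members (24.2%), beside 5.52% of all genes. Those 8 were CCNB2, CCNF, CDK1, CKS1B, CKS2, CDC20, FBXO5 and ESPL1.

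All 7 cyclin, CDK1 and CKS genes had a CCAAT box and 5 of them had TTTGAA. Among the 14 core subunits, 6 had CCAAT, 3 had TTTGAA and 0 had both, a share of CCAAT (42.9%) equal to that over all genes. The other CHR form TTCGAA was present for 2 of 33 members, beside 2.27% of all genes. The E2F-type letters TTTGGCGC and TTTCCCGC were present for 1 member (ENSA) and for 2 members (CDC16 and CDC23), beside 1.33% and 3.17%. No matches of different motifs overlapped in the windows of members. The windows differ in number between genes, and a match is a description of letters, not a site of binding.

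**Figure D1:**
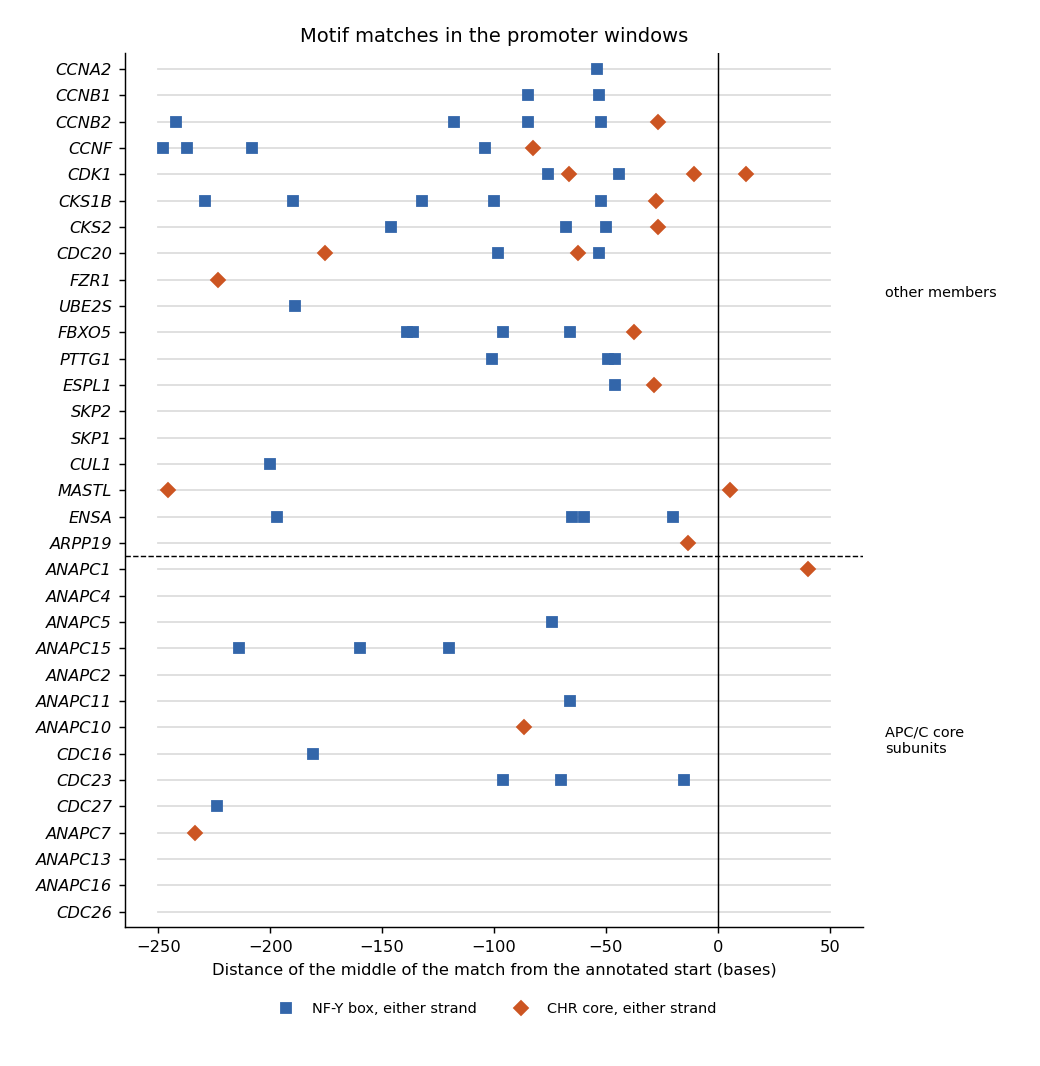
Positions of CCAAT boxes (labelled NF-Y box, squares) and TTTGAA (labelled CHR core, diamonds) in the promoter window of each of 33 members, as the distance in bases from the annotated start. For genes with several windows the one with most matches is drawn, and the dashed line separates the 14 core subunits, of which 0 hold both motifs, from the others, of which 8 do.

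Across the module, 14 of 34 members (41.2%) were called higher in LN95(KO) (adjusted p under 0.05 together with more than 2-fold), and 0 were called lower. Of all genes tested, 18.0% were called in either direction, 8.86% higher and 9.13% lower. The median log2 fold change was 0.35 over all 34 members and 1.90 over the 20 outside the core, beside -0.01 over all genes tested. The called members ranged from 1.22 to 3.68. All 14 lay outside the APC/C core, where 14 of 20 members were called. DESeq2 also called 14 higher and 0 lower, and at an unadjusted p under 0.05 in edgeR 23 members were higher and 2 lower (63.4% of all genes passed that level in either direction). At an adjusted p under 0.05 without a fold limit the same counts were 23 higher, 2 lower and 9 neither (59.8% of all genes passed). Values in CPM (counts scaled to a common library size with TMM factors) did not overlap between the lines for 23 members higher and 5 lower in LN95(KO), beside 79.8% of all genes in either direction. In bulk RNA, more cells in a given phase and more RNA per cell cannot be told apart.

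**Figure D2:**
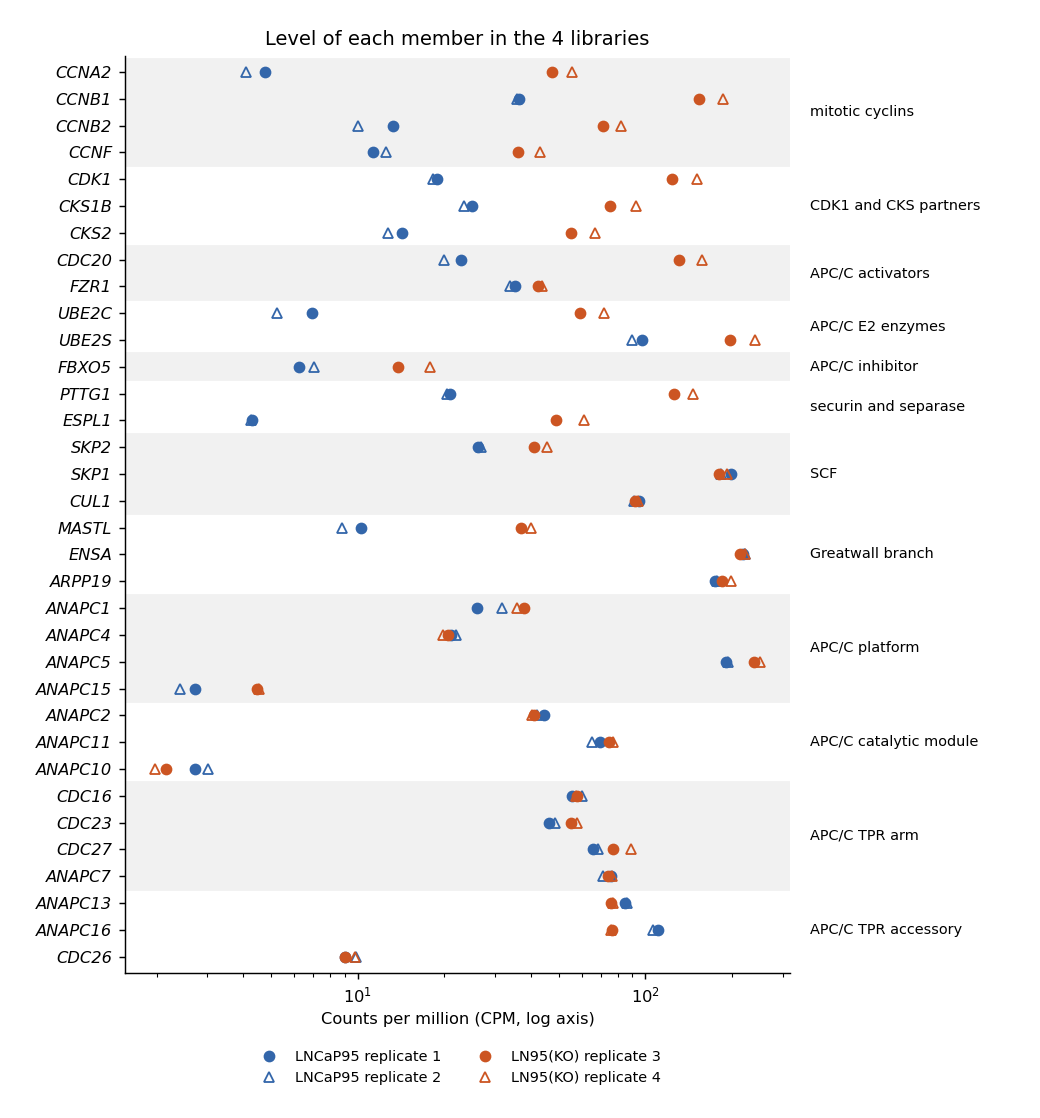
Level of each of the 34 members in CPM on a log axis, by role, in the 2 LNCaP95 libraries (blue) and the 2 LN95(KO) libraries (orange). The orange points lie to the right for the cyclins, CDK1, CKS genes, CDC20, UBE2C, PTTG1 and ESPL1, and the points of both lines lie close together for most core subunits and for SKP1, CUL1 and ENSA.

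All 4 cyclins of the list rose. CCNA2, the cyclin of S phase and early mitosis, had 88 and 75 counts in LNCaP95 against 836 and 1016 counts in LN95(KO). The lines did not overlap, with 4.43 ± 0.476 CPM against 51.5 ± 5.97 (SD, n = 2 each), an 11.6-fold difference (log2 3.54, SE 0.12, adjusted p 5.81e-14). CCNA2 lies on chromosome 4, positions 122737599 to 122745038 of GRCh37, on the minus strand, and 9.24% of its exon bases overlap EXOSC9. CCNB1, the principal partner of CDK1 in mitosis, had 673 and 656 counts against 2712 and 3396 (log2 fold change 2.23, SE 0.08). CCNB2, the second B-type cyclin, had 244 and 183 counts against 1257 and 1504 (log2 fold change 2.72, SE 0.11). Both B-type cyclins were therefore higher in each LN95(KO) library than in either LNCaP95 library. CCNF, an F-box cyclin that serves an SCF ligase and does not activate CDK1, had 209 and 229 counts against 638 and 782. Its log2 fold change was the smallest of the 4, at 1.73 (SE 0.10, adjusted p 1.33e-10).

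The rises differed in size among the cyclins. Per length of the longest transcript, CCNA2 stood at 0.0965 and 0.0844 of CCNB1 in LNCaP95 and at 0.228 and 0.221 in LN95(KO). CCNB2 stood at 0.294 and 0.226 of CCNB1 in LNCaP95 and at 0.376 and 0.359 in LN95(KO). With 2 libraries a line, a two-sided permutation test cannot go below 0.333, and these ratios are given as values.

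Other A- and B-type cyclins gave little signal. CCNA1, the germ-line A-type cyclin, had 0 counts in every library, which allows up to 3 counts (0.163 to 0.1695 CPM, counting error only). CCNB3, a B-type cyclin best known from meiosis, had 79 and 51 counts in LNCaP95 against 54 and 51 in LN95(KO), and the lines overlapped (log2 fold change -0.27, SE 0.23, adjusted p 0.31).

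CDK1 and both CKS genes rose. CDK1, the kinase that drives entry into mitosis, had 348 and 334 counts in LNCaP95 against 2189 and 2755 in LN95(KO). This was 18.5 ± 0.438 CPM against 137 ± 19.3, a 7.40-fold difference (log2 2.89, SE 0.09, adjusted p 8.48e-12). CDK1 lies on chromosome 10, positions 62538089 to 62554610 of GRCh37, on the plus strand, and shares 0% of its 50-base windows (all stretches of that length in its longest transcript) with another annotated gene. CKS1B, a small CDK-binding protein that also serves SKP2, had 462 and 428 counts against 1336 and 1692 (log2 fold change 1.80, SE 0.09). Its value is less certain because 16.3% of its 50-base windows occur in other genes, most of them in the pseudogene CKS1BP2. CKS2, its paralog, shares none, and had 262 and 233 counts against 979 and 1222 (log2 fold change 2.18, SE 0.10).

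The kinase and its cyclin moved by different amounts. CCNB1 stood per length at 1.86 and 1.89 times CDK1 in LNCaP95, and at 1.19 and 1.18 times in LN95(KO). The ratio was thus lower in both LN95(KO) libraries. With the union of exons as length it was 3.11 and 3.16 in LNCaP95 against 1.99 and 1.98 in LN95(KO). How near the ratio lies to 1 therefore depends on the length used.

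The 2 activators of the APC/C differed widely. CDC20, the activator of early mitosis and the target of the spindle checkpoint, had 423 and 366 counts in LNCaP95 against 2316 and 2875 in LN95(KO). The lines did not overlap, at 21.5 ± 2.08 CPM against 144 ± 18.9, a 6.72-fold difference (log2 2.75, SE 0.10, adjusted p 7.65e-11). CDC20 lies on chromosome 1, positions 43824652 to 43828874 of GRCh37, on the plus strand, and 9.03% of its windows recur in the pseudogene CDC20P1. FZR1, the activator of late mitosis and the gap phase that follows, had 649 and 618 counts against 749 and 800. At 34.5 ± 1.01 CPM against 43.1 ± 1.07 it was 1.25-fold higher in LN95(KO) without overlap, which passed the adjusted p but not the 2-fold limit (log2 0.32, SE 0.07, adjusted p 0.000741). FZR1 lies on chromosome 19, positions 3506309 to 3538332 of GRCh37, on the plus strand. Per length, CDC20 exceeded FZR1 by 1.90 and 1.73 times in LNCaP95 and by 9.01 and 10.5 times in LN95(KO).

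Both E2 enzymes rose, by unequal amounts. UBE2C, which places the first ubiquitins on APC/C substrates, had 128 and 96 counts in LNCaP95 against 1045 and 1312 in LN95(KO). This was a 10.7-fold difference without overlap (log2 3.43, SE 0.13, adjusted p 3.11e-11). UBE2S, which extends the ubiquitin chains, had 1796 and 1644 counts against 3478 and 4382, a 2.33-fold difference (log2 1.22, SE 0.09, adjusted p 1.10e-06). UBE2S is the less certain of the pair, since 42.4% of its windows occur in other annotated genes, and its read-through partner CTD-2105E13.13 had 0 counts. Per length, UBE2C stood at 0.1995 and 0.1635 of UBE2S in LNCaP95 and at 0.841 and 0.838 in LN95(KO), and with the union of exons as length at 0.155 and 0.127 against 0.654 and 0.652.

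FBXO5, also called EMI1, which inhibits the APC/C before mitosis, had 115 and 129 counts in LNCaP95 against 245 and 326 in LN95(KO). It was 2.39-fold higher (log2 1.26, SE 0.14, adjusted p 6.08e-07), the second smallest of the called differences. When the test itself was set against a 2-fold change, FBXO5 was the 1 called member that no longer passed.

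Securin and separase rose together. PTTG1, securin, which holds separase inactive until the APC/C destroys it, had 386 and 375 counts in LNCaP95 against 2224 and 2676 in LN95(KO) (log2 fold change 2.72, SE 0.08, adjusted p 8.97e-15). ESPL1, separase, which cuts the cohesin that holds sister chromatids, had 79 and 78 counts against 862 and 1115. At 4.27 ± 0.0153 CPM against 54.9 ± 8.77 this 12.8-fold difference was the largest of the module (log2 3.68, SE 0.13, adjusted p 1.04e-13). ESPL1 lies on chromosome 12, positions 53662083 to 53687422 of GRCh37, on the plus strand, and shares 0% of its windows. Per length, PTTG1 exceeded ESPL1 by 30.4 and 29.9 times in LNCaP95 and by 16.07 and 14.95 times in LN95(KO).

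The SCF is a further cullin ligase of the cell cycle. Of the 3 components listed under it, SKP2, SKP1 and CUL1, 0 were called by edgeR and by DESeq2. CCNF, which serves an SCF ligase, and CKS1B, which also serves SKP2, are listed above by other roles. Both of those were called higher. At an unadjusted p under 0.05, which 63.4% of all genes passed, 1 component was higher. SKP2, the F-box protein that targets the CDK inhibitor p27, had 485 and 493 counts in LNCaP95 against 724 and 832 in LN95(KO). It was 1.63-fold higher without overlap, within the 2-fold limit (log2 0.70, SE 0.08, adjusted p 5.38e-07). SKP1, the adaptor, had 3665 and 3368 counts against 3189 and 3509 (log2 fold change -0.04, SE 0.05, adjusted p 0.56). CUL1, the cullin scaffold, had 1748 and 1677 counts against 1627 and 1717 (adjusted p 0.98). Both overlapped between the lines, and the sign of either difference turned with the scaling.

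The Greatwall branch was split between the kinase and its substrates. MASTL, the Greatwall kinase, had 190 and 162 counts in LNCaP95 against 654 and 732 in LN95(KO), a 4.02-fold difference (log2 2.01, SE 0.10, adjusted p 1.08e-11). Its exons overlap YME1L1 over 16.5% of their bases. ENSA, which inhibits the phosphatase PP2A-B55 once MASTL has phosphorylated it, had 4037 and 4066 counts against 3787 and 4059 (log2 fold change -0.01, SE 0.05, adjusted p 0.82). ARPP19, the paralog with the same role, had 3213 and 3242 counts against 3258 and 3619 (log2 fold change 0.12, SE 0.05, adjusted p 0.048). ENSA overlapped between the lines and turned in sign with the scaling, whereas ARPP19 did not but stayed far within 2-fold. Per length, MASTL stood at 0.0321 and 0.0272 of ENSA in LNCaP95 and at 0.118 and 0.123 in LN95(KO).

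**Figure D3:**
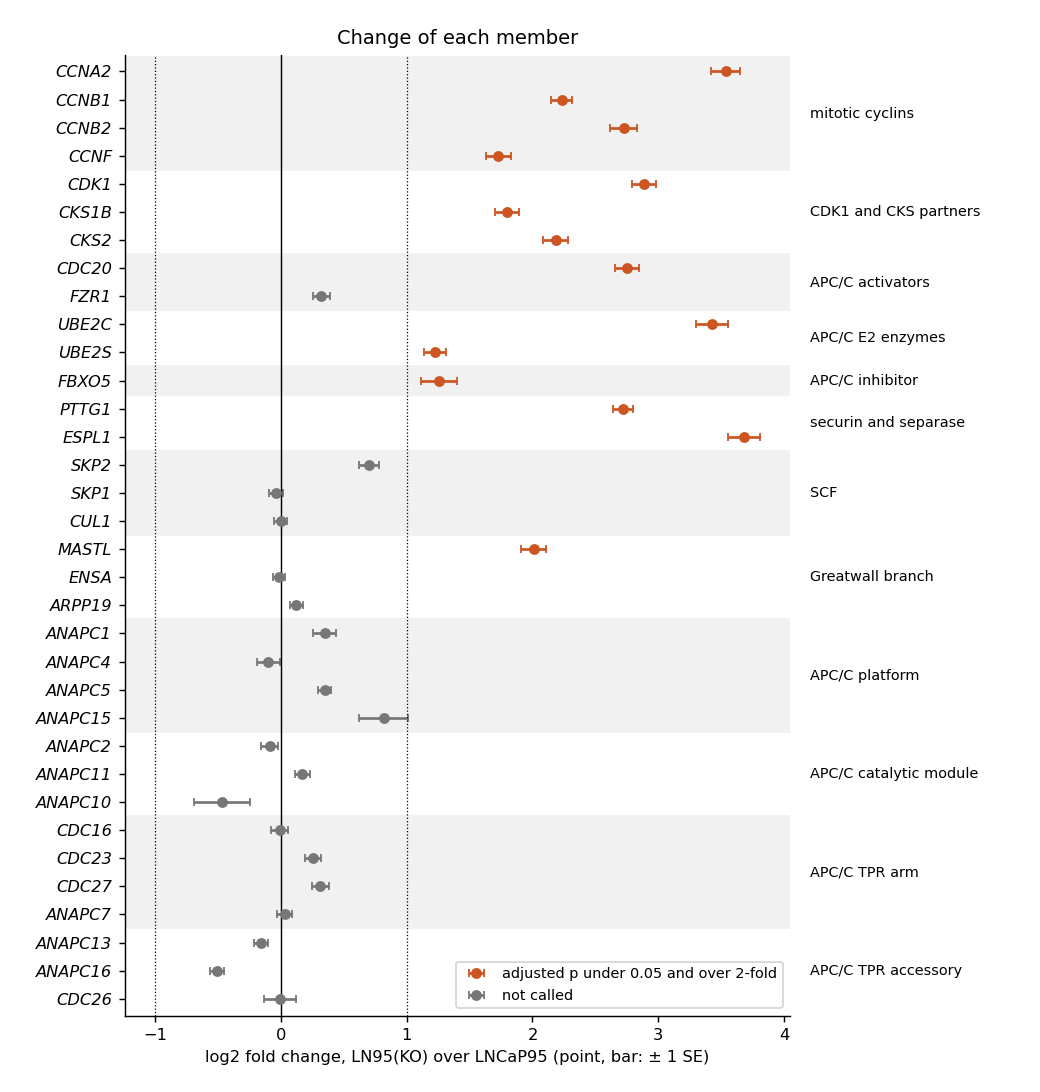
Log2 fold change (LN95(KO) over LNCaP95) of each member with ± 1 SE from the edgeR fit, by role, with dotted lines at 2-fold. The 20 members outside the core lie between -0.04 and 3.68, with 14 of them called (orange), and the 14 core subunits lie between -0.51 and 0.82, a range that also holds the 6 members outside the core that were not called.

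Of the 14 core subunits 0 were called in either direction, by edgeR and by DESeq2. Their median log2 fold change was 0.01 (-0.51 to 0.82), with 7 above and 7 below 0, of which CDC16, CDC26 and ANAPC7 turned in sign with the scaling. At an adjusted p under 0.05 without a fold limit 6 were higher and 2 lower, the same counts as at an unadjusted p under 0.05, and this share (57.1%) lay beside 59.8% of all genes. The summed level of the core was 806 and 811 CPM in LNCaP95 and 845 and 874 CPM in LN95(KO). The 20 members outside the core summed to 1040 and 1008 CPM in LNCaP95 and to 1927 and 2210 CPM in LN95(KO).

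On the platform of the complex, ANAPC5 had 3522 and 3540 counts in LNCaP95 against 4213 and 4574 in LN95(KO) (log2 fold change 0.35, SE 0.05, adjusted p 9.69e-06). ANAPC1, the largest scaffold subunit, had 481 and 583 counts against 668 and 655 (log2 fold change 0.35, SE 0.09, adjusted p 0.00271). Both were higher in each LN95(KO) library, but 52.3% of the ANAPC1 windows occur in other genes, so its counts are uncertain. ANAPC15, a small subunit that helps release the checkpoint complex, had 50 and 44 counts against 79 and 83, the largest difference of the core (log2 0.82, SE 0.19, adjusted p 0.00152). Its exons overlap LRTOMT over 27.1% of their bases. ANAPC4 had 390 and 403 counts against 364 and 360 (log2 fold change -0.10, SE 0.09, adjusted p 0.35).

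In the catalytic module, ANAPC11, the RING subunit that receives the E2, had 1287 and 1191 counts in LNCaP95 against 1319 and 1409 in LN95(KO) (log2 fold change 0.17, SE 0.06, adjusted p 0.021). ANAPC2, the cullin subunit, had 818 and 771 counts against 724 and 736 (log2 fold change -0.09, SE 0.07, adjusted p 0.27). The 2 partners of the catalytic core thus stood on opposite sides of 0, each by little. ANAPC10, which helps to hold substrates, had 50 and 55 counts against 38 and 36 (log2 fold change -0.47, SE 0.22, adjusted p 0.079). At this depth the difference of ANAPC10 could not be told from the spread, and 23.1% of its windows occur in other genes.

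The TPR arm, whose repeats receive the tails of CDC20 and FZR1, had 2 of 4 subunits higher at the adjusted p. Without a fold limit, 59.8% of all genes passed that level in either direction. CDC27, the main docking subunit, had 1209 and 1258 counts in LNCaP95 against 1370 and 1625 in LN95(KO) (log2 fold change 0.31, SE 0.07, adjusted p 0.000728). CDC23 had 850 and 890 counts against 979 and 1053 (log2 fold change 0.26, SE 0.06, adjusted p 0.00256), and 1.60% of its exon bases overlap KIF20A on the other strand. Reads were counted without strand, and KIF20A had 148 and 130 counts in LNCaP95 against 1008 and 1371 in LN95(KO). The part of KIF20A in the small rise of CDC23 was not tested. The other two subunits of the arm overlapped between the lines. CDC16 had 1024 and 1106 counts against 1024 and 1043 (log2 fold change -0.01, SE 0.06). ANAPC7 had 1407 and 1304 counts against 1314 and 1396 (log2 fold change 0.03, SE 0.06), and the sign of both turned with the scaling or with a library left out.

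The small accessory subunits of the arm held the 2 core genes that were lower at the adjusted p, which 59.8% of all genes passed. ANAPC16 had 2039 and 1953 counts in LNCaP95 against 1358 and 1388 in LN95(KO), that is 109 ± 2.72 CPM against 76.4 ± 0.472. It fell by 0.51 on the log2 scale (SE 0.05, adjusted p 3.68e-07), within the 2-fold limit and without overlap. ANAPC16 lies on chromosome 10, positions 73975758 to 73995618 of GRCh37, on the plus strand. ANAPC13 had 1573 and 1576 counts against 1348 and 1406 and fell by 0.16 on the log2 scale (SE 0.05, adjusted p 0.0183), and its exons overlap CEP63 over 19.3% of their bases. CDC26, which stabilizes CDC16, had 167 and 180 counts against 160 and 178 (log2 fold change -0.01, SE 0.13, adjusted p 0.97), and 25.4% of its windows occur in other genes, CDC26P1 above all.

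Activators and E2 enzymes were then set against the core within each library, per length, which does not depend on the scaling between libraries. The median of the 4 activators and E2 enzymes over the median of the 14 core subunits was -0.62 and -0.82 on the log2 scale in LNCaP95 against 2.06 and 2.31 in LN95(KO), a rise of 2.91. The genes differed widely around this value. Over the core median CDC20 rose by 2.66, FZR1 by 0.23, UBE2C by 3.34 and UBE2S by 1.13, so 2.91 does not describe FZR1 or UBE2S. The core median itself was 15.7 (CPM per kilobase) in each LNCaP95 library against 16.5 and 16.8 in LN95(KO). With the union of exons as the length the rise was 2.66, and CDC20 then stood at 0.22 and -0.05 from the core median in LNCaP95, on either side of it. In LNCaP95 the level of CDC20 per length exceeded 6 and 4 of the 14 core subunits, and UBE2C exceeded 4 and 3. In LN95(KO) CDC20, UBE2C and UBE2S each exceeded all 14 in both libraries. FZR1 exceeded 4 of 14 in every library, and UBE2S already exceeded 13 of 14 in LNCaP95. The contrast with the core was thus seen in CDC20 and both E2 enzymes, while FZR1 kept its rank. These are levels of RNA per kilobase and do not measure the amounts of protein.

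**Figure D4:**
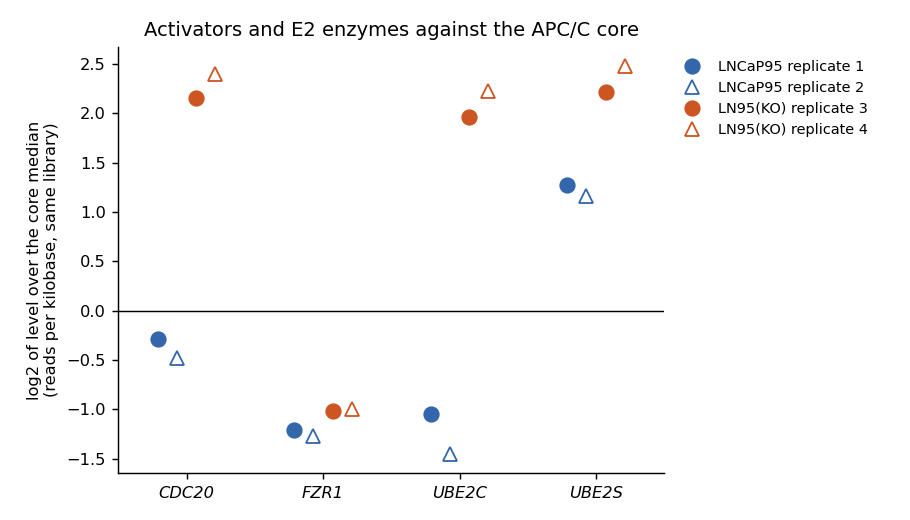
Level of each activator and E2 enzyme over the median of the 14 core subunits of the same library, as log2 of reads per kilobase of the longest transcript, in LNCaP95 (blue) and LN95(KO) (orange). With this length CDC20 and UBE2C pass from below to above the core median, UBE2S stands above it in all 4 libraries, and FZR1 stays below it. With the union of exons CDC20 stands at 0.22 and -0.05 in LNCaP95.

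The 2 LN95(KO) libraries were not equal for these genes. All 14 called members were higher in replicate 4 than in replicate 3, by a median ratio in CPM of 1.21 (1.09 to 1.29), while the median over all genes was 1.00 and 50.9% of genes were above 1. In LNCaP95 12 of the 14 were higher in replicate 1 than in replicate 2, by a median ratio of 1.08. The core subunits had a median ratio of 1.02 between replicates 4 and 3, with 8 of 14 above 1. Without replicate 4, and likewise without any other single library, 14 members were called higher and 0 lower.

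Genes around the module, on which it acts or which act on it or beside it, were taken from lists by function. Of 24 listed APC/C substrates 23 were called higher and 0 lower, with a median log2 fold change of 2.75 (0.59 to 4.05), and DESeq2 called the same number of each. Of all genes tested, 8.86% were called higher and 9.13% lower. The lists were chosen with earlier results of these data known. At an unadjusted p under 0.05, 24 substrates were higher and 0 lower, beside 63.4% of all genes in either direction. AURKB, the kinase of the chromosomal passenger complex, had 56 and 73 counts in LNCaP95 against 933 and 1155 in LN95(KO) (log2 fold change 4.05, SE 0.13). RRM2, the small subunit of ribonucleotide reductase, had 104 and 96 counts against 1116 and 1470 (log2 fold change 3.72, SE 0.13). ANLN, the cytokinesis scaffold anillin, had 164 and 151 counts against 1419 and 1567 (log2 fold change 3.28, SE 0.08). The substrate not called was GMNN, geminin, which restrains replication licensing and had 476 and 385 counts against 563 and 704 (log2 fold change 0.59, SE 0.11).

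The list around the mitotic checkpoint complex, which holds CDC20 inactive, had 4 of 7 genes called higher and 0 lower (median log2 fold change 2.02), also by DESeq2. Not all of the list builds the complex: TRIP13 and MAD2L1BP help to take it apart. TRIP13 was among the 4 called, with 300 and 282 counts in LNCaP95 against 989 and 1320 in LN95(KO) (log2 fold change 2.02, SE 0.12). MAD2L1BP was not called. TTK, the kinase that starts the checkpoint, had 47 and 60 counts in LNCaP95 against 429 and 459 in LN95(KO) (log2 fold change 3.08, SE 0.13). BUB1B, a component of the complex, had 91 and 74 counts against 578 and 678 (log2 fold change 2.96, SE 0.12). MAD2L1, which binds CDC20 directly, had 190 and 161 counts against 767 and 1026 (log2 fold change 2.38, SE 0.13). All 3 were higher in each LN95(KO) library. At an unadjusted p under 0.05, 5 genes of the list were higher and 1 lower. Of all genes, 63.4% passed that level in either direction, and 8.86% were called higher.

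Among genes that set the phosphorylation of CDK1 or inhibit it, 5 of 10 were called higher and 0 lower by edgeR and by DESeq2 (median log2 fold change 0.93). The 5 called were the inhibitory kinases WEE1 and PKMYT1 and the activating phosphatases CDC25A, CDC25B and CDC25C. WEE1 had 425 and 417 counts in LNCaP95 against 1064 and 1083 in LN95(KO) (log2 fold change 1.38, SE 0.07). PKMYT1, which phosphorylates and restrains CDK1, had 46 and 39 counts in LNCaP95 against 460 and 572 in LN95(KO) (log2 fold change 3.63, SE 0.15). CDC25C, which removes that phosphate, had 54 and 64 counts against 506 and 562 (log2 fold change 3.21, SE 0.12). CDC25B, a phosphatase of the same family, had 123 and 131 counts against 603 and 599 (log2 fold change 2.27, SE 0.10). At an unadjusted p under 0.05, 7 genes of the list were higher and 1 lower. Of all genes, 63.4% passed that level in either direction, and 8.86% were called higher.

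The PP2A-B55 phosphatase, which the Greatwall branch restrains, had 0 of 7 genes called higher and 1 called lower by either tool (median log2 fold change -0.04). That gene was PPP2R2C, a B55 regulatory subunit, with 2065 and 2114 counts in LNCaP95 against 62 and 68 in LN95(KO). It fell by 4.97 on the log2 scale (SE 0.09, adjusted p 1.51e-17) and was the single called fall in the lists. The other B55 subunits of the list did not fall. PPP2R2A had 2876 and 2873 counts in LNCaP95 against 2886 and 2776 in LN95(KO) (log2 fold change 0.01, SE 0.05). PPP2R2D had 649 and 653 counts against 757 and 733 (log2 fold change 0.23, SE 0.07). At an unadjusted p under 0.05, 2 genes of the list were higher and 2 lower. Of all genes, 63.4% passed that level in either direction, and 9.13% were called lower.

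The remaining lists held 0 called genes by edgeR and by DESeq2. Cohesin, the substrate of separase, with its loaders and releasers had 10 genes tested with a median log2 fold change of 0.11, of which 4 were higher and 3 lower at an unadjusted p under 0.05. For the 12 cullin-RING partners the median was 0.09, and 5 stood higher and 4 lower at that level, which 63.4% of all genes passed. Of 6 other enzymes tied to the APC/C 5 were tested, with a median of 0.08 and 1 higher and 1 lower at that level, while USP44, a deubiquitinase of the checkpoint, had 1 and 2 counts in LNCaP95 against 0 and 1 in LN95(KO) and was not tested. Over the 8 lists 76 of 78 genes were tested, 32 were called higher and 1 lower, beside 8.86% and 9.13% of all genes.

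**Figure D5:**
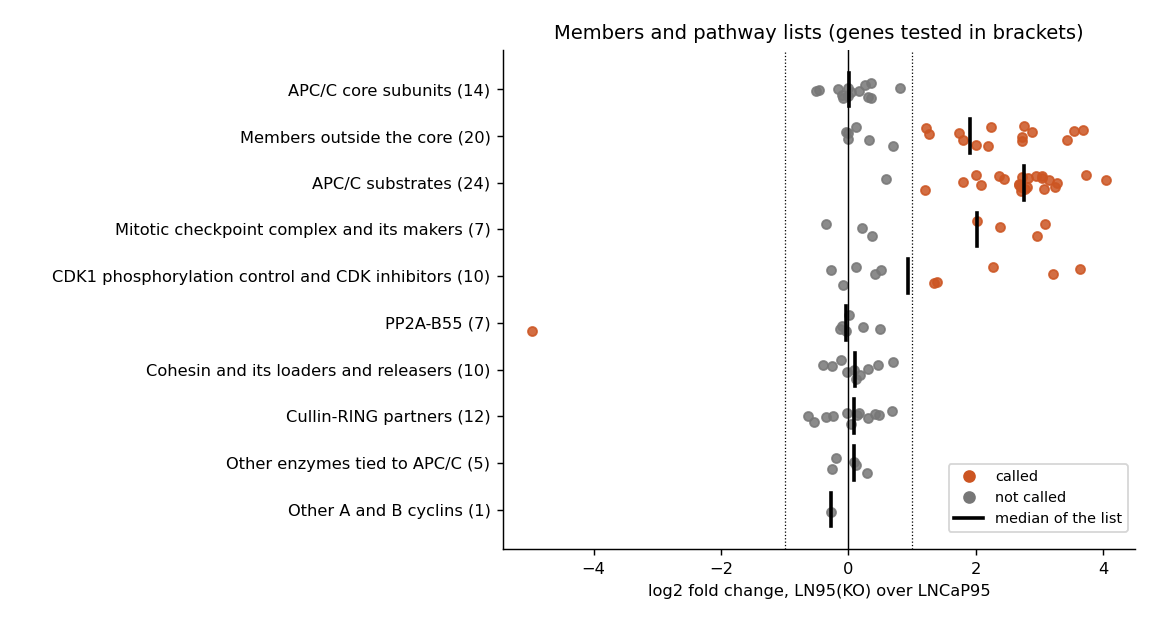
Log2 fold change (LN95(KO) over LNCaP95) of every tested gene in the core, in the rest of the module and in the 8 pathway lists, with called genes in orange, dotted lines at 2-fold and a bar at the median of each list. Called genes gather among the members outside the core (14 of 20) and the APC/C substrates (23 of 24), beside 18.0% of all genes. PPP2R2C lies alone at the left.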

How the data were processed

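RNA-Seq of 4 libraries was analysed. The authors deposited raw read counts for each gene, made by aligning reads to hg19 with hisat2 (version 2.1.0 in the submitters' processing notes) and counting with htseq on GENCODE release 29, without strand, so reads on overlapping genes or on identical copies can be lost. The 5 summary lines (23.8% to 27.5% of entries) were left out. Groups came from the sample labels. The members, roles, lists and tests were chosen with earlier results of these data known. Named genes are all members and, from each list, the called falls and the 3 largest called rises. GMNN, CCNA1, CCNB3, USP44, TRIP13, MAD2L1BP, WEE1, CDC25A, PPP2R2A, PPP2R2D and KIF20A were named after their values were seen.

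Lines were compared in edgeR (version 4.0.16, under R version 4.3.3) by its quasi-likelihood test, with TMM factors, robust estimation and filterByExpr (minimum count 10, minimum total 15) on 15626 genes, checked on simulated data. P-values were adjusted by Benjamini-Hochberg over all genes tested. Fold changes are LN95(KO) over LNCaP95, and the SE is the size of the log2 value over the square root of F. Alternatives included DESeq2 (version 1.42.0). Lengths, overlaps, coordinates and shared windows came from GENCODE release 44 on GRCh37. Symbols were found for 59899 of 60880 identifiers. Levels compared between genes are CPM per kilobase of the longest transcript. Promoters came from RefSeq. No protein sequences were analysed here, and 2 of the luminal markers are not reported here. The biological coefficient of variation was 4.27%.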

Additional observations from a re-analysis of the deposited data

Results flagged for a closer look

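The share of reads that could not be aligned, a count outside the gene table, was higher in both LN95(KO) libraries than in either control library. It was at least 7.71% in LN95(KO) and 3.85% and 3.96% in LNCaP95. The values are given as measured.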

How the results depend on the processing

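No paired analysis was possible because replicates 1 and 2 are LNCaP95 and 3 and 4 LN95(KO). The 14 called members stayed 14 under every scaling, filter and left-out library and with DESeq2, and were 13 when the test was set against a 2-fold change (glmTreat). Without a fold limit 23 members were higher and 2 lower. Over the whole table the calls numbered 2811, against 1760 with at least 50 counts in 2 libraries, 1687 with glmTreat and 9349 without a fold limit. The core median of 0.01 was 0.069 with library totals and -0.025 with upper-quartile factors. The difference between the median log2 fold changes of activators with E2 enzymes and of the core, 1.97, ranged from 1.84 to 2.07 without 1 library. The per-length rise of 2.91 is another measure, since it takes medians of levels within each library, and was 2.66 with the union of exons. On the strand of the gene alone CCAAT was present for 12 of 33 members (36.4%, beside 25.4% of all genes) and both motifs for 5 (15.2%, beside 1.75%).

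Of 374 values for single members under alternatives, 18 turned in sign, all of differences under 0.04. With library totals they were 0.017 for SKP1, 0.054 for CUL1, 0.041 for ENSA, 0.045 for CDC16 and 0.0498 for CDC26. CUL1 was 0.00035 with RLE factors and 0.00033 with DESeq2, and ANAPC7 was -0.0065 with upper-quartile factors. Without 1 library the ranges were -0.094 to 0.018 for SKP1, -0.027 to 0.023 for CUL1, -0.039 to 0.018 for ENSA, -0.071 to 0.051 for CDC16, -0.017 to 0.082 for ANAPC7 and -0.064 to 0.054 for CDC26. The cause was not tested. With 2 libraries a line, differences of this size lie within the spread, and the members with fewest counts, ANAPC10 and ANAPC15, have the largest SEs (0.22 and 0.19). Protein motifs, planned as a description, were not run.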
